A study of Schizosaccharomyces pombe with 9 samples.

Results

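The 10 glycolysis genes described here encode enzymes that turn glucose into pyruvate in fission yeast (Schizosaccharomyces pombe). The list was made by gene name and enzyme, with earlier results of these data known: hxk1 (SPAC24H6.04), hxk2 (SPAC4F8.07c), gpm1 (SPAC26F1.06) and pyk1 (SPAC4H3.10c) on chromosome I, fba1 (SPBC19C2.07), tdh1 (SPBC32F12.11), gpd3 (SPBC354.12), pgk1 (SPBC14F5.04c) and eno101 (SPBC1815.01) on chromosome II, and tpi1 (SPCC24B10.21) on chromosome III. All 10 were found among the 4915 genes of the count table, and all 10 passed the filter on low counts that left 4887 tested genes. The lowest count of any of them was 5145, for hxk1 in a K587A library.

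Glycolysis begins with the phosphorylation of glucose by hexokinase. The sugar phosphate is rearranged, phosphorylated again and split by aldolase into triose phosphates, which triose phosphate isomerase interconverts. Glyceraldehyde-3-phosphate dehydrogenase, phosphoglycerate kinase, phosphoglycerate mutase, enolase and pyruvate kinase then carry the triose to pyruvate with net formation of ATP. Fission yeast ferments glucose to ethanol even with oxygen present, and the mRNAs of the lower steps are among the most abundant of growing yeast cells.

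Polyadenylated RNA was sequenced from log-phase cultures grown in rich YEA medium at 32 °C. All 3 genotypes express a fusion of the Tet repressor (TetR), a DNA-binding protein, to Mit1, the remodeling ATPase of SHREC (a histone deacetylase complex of heterochromatin), and no strain without the fusion was analysed. TetR-Mit1 (3 libraries) carries the fusion alone, K587A (3 libraries) carries the fusion with the labelled substitution K587A in Mit1, and clr4oe (2 libraries; the third was not analysed here) carries the unsubstituted fusion with a modification labelled clr4oe. The transcript of clr4, the gene of the H3K9 methyltransferase, stood at 273.3 and 284.2 CPM (counts per 1000000 after TMM scaling) in the clr4oe libraries and at 53.7 to 60.9 CPM in the other 6. The substitution itself cannot be checked from gene counts; the mit1 transcript ran from 520.5 to 548.7 CPM in K587A and from 343.7 to 392.5 CPM in the other genotypes.

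Totals ran from 10367168 to 15920802 counts per library. The labels give 1 strain number per genotype, and effects of the strain and of the genotype cannot be told apart. No label says that the libraries of a genotype came from separate cultures, so the p-values measure only the spread between these libraries. Counts of the 7 pairs of libraries within a genotype differed by more than sampling noise (chi-square over its degrees of freedom, 2.75 to 6.08). Every library was entered as its own replicate, but this excess does not show that the cultures were separate. CPM values are relative to all counted mRNA, so a change in mRNA per cell cannot be seen.

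Together the 10 genes took a larger share of all counts in K587A than in TetR-Mit1, and the largest in clr4oe. The share was 4.86%, 4.81% and 4.86% in the 3 TetR-Mit1 libraries (4.84% ± 0.0299, SD, n = 3). It was 6.45%, 6.37% and 6.35% in K587A (6.39% ± 0.0549, SD, n = 3). In clr4oe it was 8.41% and 8.23% (8.32% ± 0.127, SD, n = 2). The 3 genotypes did not overlap. The differences from TetR-Mit1 were 1.55 percentage points in K587A and 3.47 in clr4oe (exact two-sided permutation tests, p = 0.1 and 0.2, the smallest values that 3 against 3 and 3 against 2 libraries allow). The 95% Wilson interval of a library's share was at most 0.0297 percentage points wide; it covers counting error only. Within the 10, tdh1 took 20.8% of the counts in TetR-Mit1, 19% in K587A and 23.4% in clr4oe. The share of fba1 was 17.4%, 18.4% and 14.8% in the same order, and that of gpd3 was 2.73%, 1.84% and 1.57%.

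**Figure D1:**
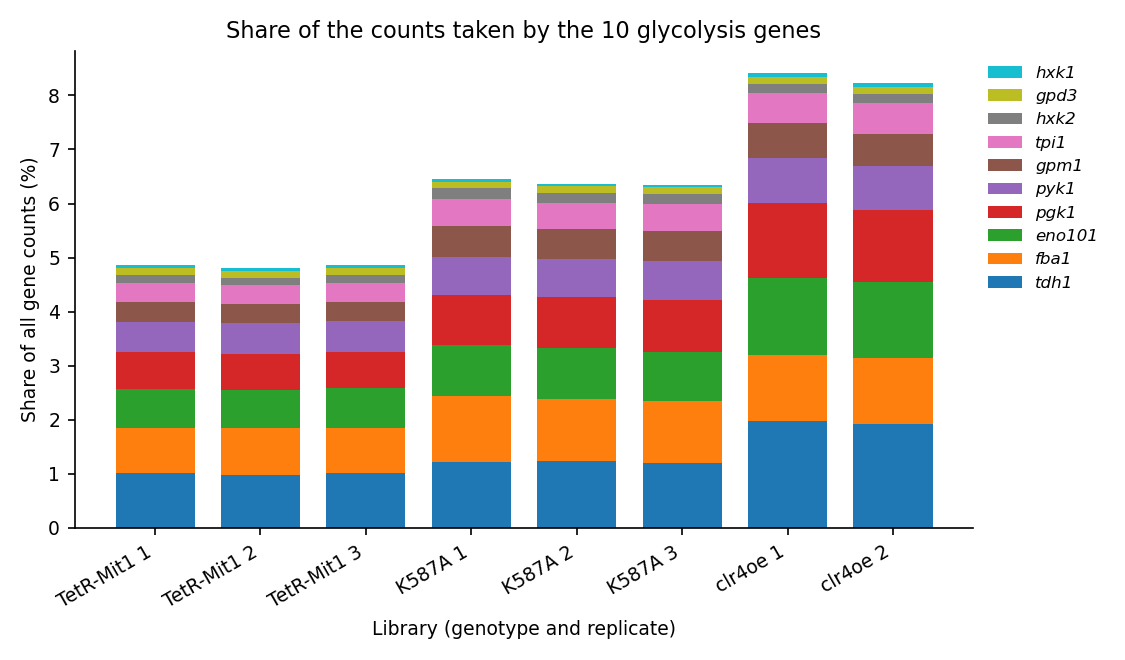
Stacked bars give the percentage of all gene counts taken by each of the 10 glycolysis genes in each of the 8 libraries, with the most abundant gene at the bottom. The stacks reach 4.81% to 4.86% in TetR-Mit1, 6.35% to 6.45% in K587A and 8.23% to 8.41% in clr4oe, and tdh1 forms the largest segment in both clr4oe libraries.

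Levels of the 10 genes differed widely when set per kilobase of coding length. In TetR-Mit1, tdh1 stood highest at 9508 ± 184 CPM per kb (SD, n = 3), rank 2 of 4882 genes with a coding length. Below it came fba1 at 7465 ± 143 CPM per kb (SD, n = 3; rank 5), and then gpm1, eno101 and pgk1 at 5328 ± 183, 5200 ± 95.5 and 5137 ± 78.9 CPM per kb (SD, n = 3 each), which did not differ beyond their spread. Next in order were tpi1 (4539 ± 75.8 CPM per kb) and pyk1 (3533 ± 95 CPM per kb; SD, n = 3 each). The remaining 3 genes were far lower: gpd3 stood at 1252 ± 15.7, hxk2 at 978.9 ± 14.9 and hxk1 at 355.0 ± 8.20 CPM per kb (SD, n = 3 each), with hxk1 at rank 528.

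In both other genotypes tdh1 ranked first of all genes per coding length, at 12716 ± 188 CPM per kb in K587A (SD, n = 3) and 19143 ± 396 CPM per kb in clr4oe (SD, n = 2). The order below it changed in places. In K587A hxk2 (1498 ± 69.9 CPM per kb) stood above gpd3 (1239 ± 31.9 CPM per kb; SD, n = 3 each), the reverse of their order in TetR-Mit1. There gpm1, at 9509 ± 275 CPM per kb, also stood above pgk1 and eno101, at 8051 ± 117 and 7441 ± 143 CPM per kb (SD, n = 3 each). In clr4oe, by contrast, pgk1 and eno101, at 10829.7 ± 260 and 10639.8 ± 160 CPM per kb (SD, n = 2 each), stood above gpm1 at 9674 ± 407 CPM per kb (SD, n = 2). In the same libraries pyk1 moved to rank 10, from rank 28 in TetR-Mit1.

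**Figure D2:**
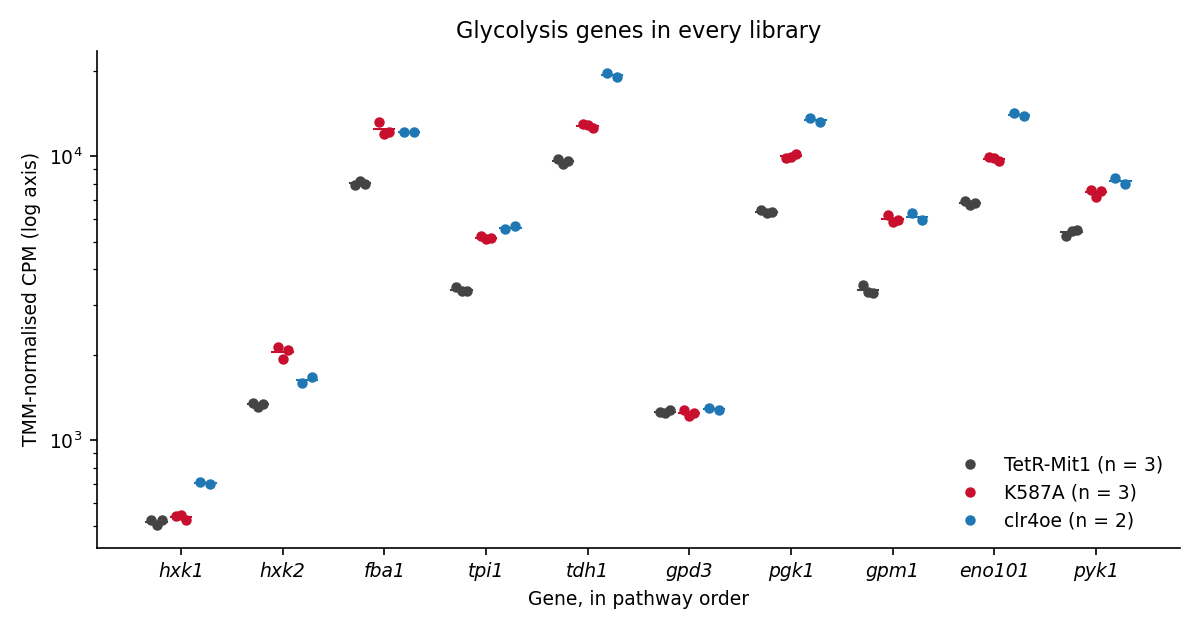
Points give the TMM-normalised CPM of each glycolysis gene in every library on a log axis, with a short line at the mean of each genotype; genes run in pathway order. The K587A and clr4oe points lie above the TetR-Mit1 points for 9 of the 10 genes, by least for hxk1 in K587A, and the gpd3 points of all genotypes lie between 1212 and 1302 CPM.

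Against TetR-Mit1, 8 of the 10 genes rose in K587A and none fell (edgeR quasi-likelihood test, adjusted p under 0.05), where 27.3% of all tested genes rose and 25% fell. Rises of at least 1.5-fold were found in 5 of the 10, against 1.51% of all tested genes. The median log2 fold change of the 10 was 0.562, beside 0.00579 over all genes. In clr4oe, 9 of the 10 rose against TetR-Mit1 and none fell, where 32.1% of all tested genes rose and 33.0% fell. There 7 of the 10 rose at least 1.5-fold, against 4.99% of all genes, and the median was 0.663 beside -0.00258. In TMM-scaled CPM every K587A library was above every TetR-Mit1 library for 9 of the 10 genes, against 30.2% of all tested genes. Every clr4oe library was above every TetR-Mit1 library for 10 of 10, against 36.7%. These counts include hxk1 in K587A and gpd3 in clr4oe, whose changes were not called (edgeR adjusted p = 0.147 and 0.387). With total-count scaling their log2 fold changes were -0.0916 and -0.0224, so the separation of these genes depends on the scaling. The TetR-Mit1 libraries are the reference of both comparisons.

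The scaling of libraries moved with genotype: the TMM factors were 1.047 to 1.054 in TetR-Mit1, 0.9344 to 0.9575 in K587A and 1.008 to 1.01 in clr4oe. With scaling by total counts alone the median of all genes in K587A against TetR-Mit1 shifted to -0.146, and 502 genes were called higher and 2515 lower, in place of 1333 and 1224. The median of the 10 glycolysis genes was then 0.41, still with 8 of 10 higher, but hxk1 and gpd3 were called lower and only gpm1 passed 1.5-fold.

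The hexokinase genes responded differently from each other. For hxk2 the TetR-Mit1 libraries gave 1353, 1314 and 1342 CPM. The K587A libraries gave 2121, 1938 and 2074 CPM and the clr4oe libraries 1596 and 1666 CPM. The 3 genotypes did not overlap, with K587A highest. Expression of hxk2 rose 1.53-fold in K587A (log2 0.61 ± 0.04 SE, edgeR adjusted p = 2.40e-13) and 1.22-fold in clr4oe (log2 0.29 ± 0.04 SE, edgeR adjusted p = 7.52e-07). For hxk1, the other hexokinase, TetR-Mit1 gave 521.7, 501.7 and 522.8 CPM. K587A gave 542.6, 544.2 and 524.3 CPM, and clr4oe gave 714.2 and 700.0 CPM. The clr4oe libraries stood apart, while those of K587A lay just above those of TetR-Mit1. Expression of hxk1 rose 1.37-fold in clr4oe (log2 0.46 ± 0.04 SE, edgeR adjusted p = 8.69e-11), and in K587A its log2 fold change was 0.06 ± 0.03 SE (edgeR adjusted p = 0.147).

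The aldolase gene fba1, whose enzyme splits fructose-1,6-bisphosphate, had 7888, 8187 and 7978 CPM in TetR-Mit1. It had 13187, 12001 and 12189.5 CPM in K587A and 12203 and 12153 CPM in clr4oe. Both genotypes lay above TetR-Mit1 and overlapped each other. The rises were 1.55-fold in K587A (log2 0.64 ± 0.03 SE, edgeR adjusted p = 5.75e-14) and 1.52-fold in clr4oe (log2 0.60 ± 0.04 SE, edgeR adjusted p = 6.08e-13). The gene of triose phosphate isomerase, tpi1, had 3455, 3365 and 3351 CPM in TetR-Mit1, 5248, 5099 and 5138 CPM in K587A, and 5528 and 5668 CPM in clr4oe. Here too no library of either genotype reached down to TetR-Mit1. The rises were 1.52-fold (log2 0.61 ± 0.03 SE, edgeR adjusted p = 1.82e-14) and 1.65-fold (log2 0.72 ± 0.03 SE, edgeR adjusted p = 2.10e-15).

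In clr4oe the 4 largest rises were of genes for the lower steps. Phosphoglycerate kinase, which forms the first ATP of the pathway, is encoded by pgk1. Its level was 6488, 6296 and 6357 CPM in TetR-Mit1, 9878, 9960.4 and 10160 CPM in K587A, and 13679 and 13222 CPM in clr4oe. The 3 genotypes formed separate steps, with clr4oe highest. The rise was 1.57-fold in K587A (log2 0.65 ± 0.03 SE, edgeR adjusted p = 3.80e-15) and 2.11-fold in clr4oe (log2 1.08 ± 0.03 SE, edgeR adjusted p = 5.87e-19), where it ranked 54 of 4887 tested genes by log2 fold change. The enolase gene eno101 showed the same order, with 6963, 6714 and 6870.1 CPM in TetR-Mit1, 9951, 9859 and 9589 CPM in K587A, and 14162 and 13863 CPM in clr4oe. Its groups did not overlap either. It rose 1.43-fold in K587A (log2 0.52 ± 0.03 SE, edgeR adjusted p = 3.96e-13) and 2.05-fold in clr4oe (log2 1.03 ± 0.03 SE, edgeR adjusted p = 1.52e-18).

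Glyceraldehyde-3-phosphate dehydrogenase is encoded by tdh1 and gpd3. The levels of tdh1 were 9754, 9385 and 9612 CPM in TetR-Mit1, 12998, 12836 and 12619 CPM in K587A, and 19579 and 19014 CPM in clr4oe. Each genotype stood apart from the others. The rise was 1.34-fold in K587A (log2 0.42 ± 0.03 SE, edgeR adjusted p = 2.05e-11) and 2.01-fold in clr4oe (log2 1.01 ± 0.03 SE, edgeR adjusted p = 1.99e-18). The levels of gpd3 were 1257, 1244 and 1275 CPM in TetR-Mit1, 1276, 1212 and 1248 CPM in K587A, and 1302 and 1280.1 CPM in clr4oe. These libraries lay close together across genotypes, those of K587A overlapping TetR-Mit1 and those of clr4oe lying just above it. No change of gpd3 passed the threshold: the fold was 0.990 in K587A (95% interval 0.946 to 1.03, edgeR adjusted p = 0.722) and 1.03 in clr4oe (95% interval 0.976 to 1.08, edgeR adjusted p = 0.387).

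Phosphoglycerate mutase, encoded by gpm1, moves the phosphate group before the enolase step. Its mRNA stood at 3506, 3319 and 3294 CPM in TetR-Mit1, at 6216, 5884 and 5959 CPM in K587A, and at 6306 and 5941 CPM in clr4oe. Both genotypes were above TetR-Mit1 and overlapped each other. The rise was 1.78-fold in K587A (log2 0.84 ± 0.04 SE, edgeR adjusted p = 3.43e-16), rank 28 of 4887 genes and the largest of the 10, and 1.82-fold in clr4oe (log2 0.86 ± 0.04 SE, edgeR adjusted p = 6.38e-16). Among the counted genes, mug106 overlaps gpm1 and held 9.28 to 12.6 CPM in the genotype means. Annotated genes that were not counted overlap hxk1, hxk2, fba1, gpd3, pgk1, gpm1 and pyk1. What these overlaps do to the counts was not tested. The pyruvate kinase gene pyk1, for the last step, had 5232, 5447 and 5508 CPM in TetR-Mit1, 7629, 7203 and 7555 CPM in K587A, and 8352 and 7975 CPM in clr4oe. All libraries of both genotypes exceeded those of TetR-Mit1. The rises were 1.38-fold (log2 0.47 ± 0.03 SE, edgeR adjusted p = 1.39e-11) and 1.51-fold (log2 0.60 ± 0.04 SE, edgeR adjusted p = 4.17e-13).

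**Figure D3:**
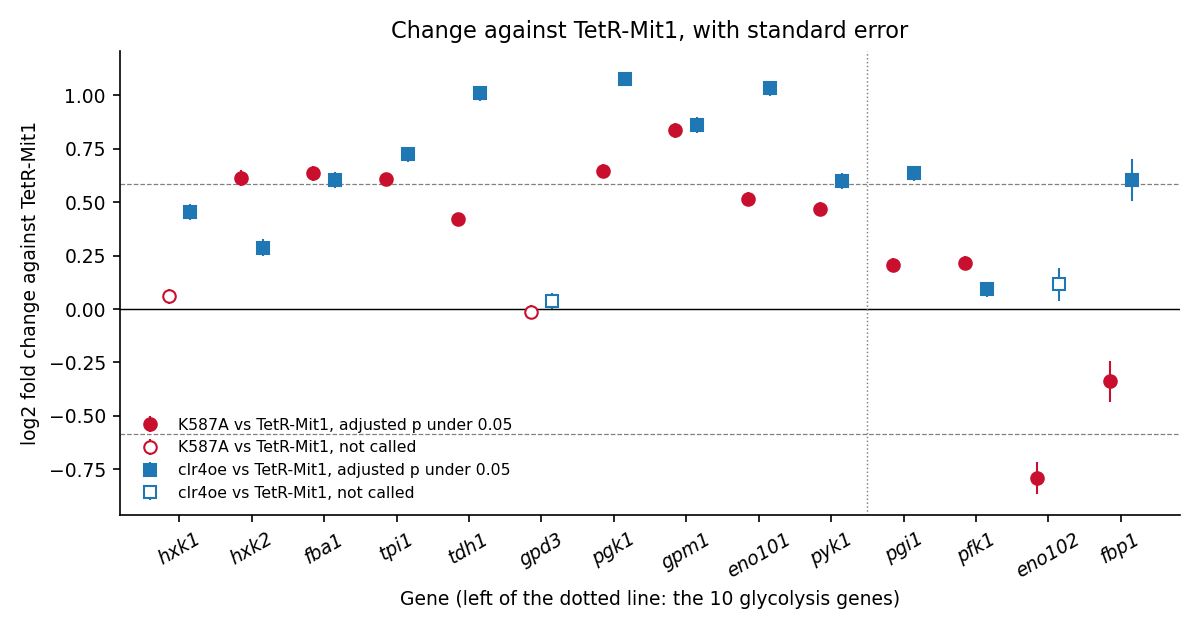
Symbols give the log2 fold change against TetR-Mit1 with its standard error for the 10 glycolysis genes and, right of the dotted line, 4 further genes of the pathway; filled symbols passed an adjusted p of 0.05, and dashed lines mark 1.5-fold. Of the 10 genes, tdh1, pgk1 and eno101 reach 1.01 to 1.08 in clr4oe, gpm1 is highest in K587A at 0.84, and gpd3 lies near 0 in both.

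Set directly against each other, clr4oe and K587A differed in 7 of the 10 genes, 6 higher and 1 lower in clr4oe. Of all 4887 tested genes 3505 differed, with 35.4% higher and 36.4% lower, so 7 of 10 is near the share over all genes. The largest difference was that of tdh1 (log2 0.59 ± 0.03 SE, edgeR adjusted p = 4.54e-14), the 1 gene past 1.5-fold, against 9.80% of all tested genes, followed by eno101 (log2 0.52), pgk1 (log2 0.43) and hxk1 (log2 0.40). The differences in pyk1 (log2 0.13 ± 0.04 SE, edgeR adjusted p = 0.00345) and tpi1 (log2 0.12 ± 0.03 SE, edgeR adjusted p = 0.00417) were small, and under upper-quartile scaling neither passed the threshold (adjusted p = 0.0922 and 0.151). Without the first clr4oe library pyk1 did not pass it either (adjusted p = 0.0765). The 1 lower gene was hxk2 (log2 -0.33 ± 0.04 SE, edgeR adjusted p = 9.12e-08). Upper-quartile scaling also called fba1 lower (log2 -0.096, adjusted p = 0.0217), which made 4 higher and 2 lower, and total-count scaling called gpm1 and gpd3 higher (adjusted p = 0.0032 and 0.000438), which made 8 higher and 1 lower. For fba1, gpm1 and gpd3 the 95% intervals of the fold were 0.927 to 1.03, 0.965 to 1.07 and 0.986 to 1.09, and none passed the threshold in the main scaling.

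A pair of genes serves each of 3 steps, and the share within a pair does not depend on how libraries are scaled. Of the counts of hxk1 and hxk2 together, hxk2 took 72.2%, 72.4% and 72.0% in TetR-Mit1, 79.6%, 78.1% and 79.8% in K587A, and 69.1% and 70.4% in clr4oe. K587A was highest and clr4oe lowest, without overlap. Of the counts of tdh1 and gpd3, gpd3 took 11.6% ± 0.168 in TetR-Mit1 (SD, n = 3), 8.86% ± 0.200 in K587A (SD, n = 3) and 6.27% ± 0.0513 in clr4oe (SD, n = 2). This pair also separated the genotypes fully, with tdh1 taking more in each.

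The second enolase gene, eno102 (SPBPB21E7.01c, chromosome II), is a minor partner of eno101. It took 0.892% ± 0.0108 of the pair's counts in TetR-Mit1 (SD, n = 3), 0.361% ± 0.0349 in K587A (SD, n = 3) and 0.474% ± 0.0431 in clr4oe (SD, n = 2). Both genotypes lay below TetR-Mit1. For the 3 pairs, exact two-sided permutation tests against TetR-Mit1 gave p = 0.1 in K587A and p = 0.2 in clr4oe, the smallest these numbers of libraries allow. How the authors' counting treated reads shared by similar copies is not given in the sources used here, so the split within a pair is uncertain.

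**Figure D4:**
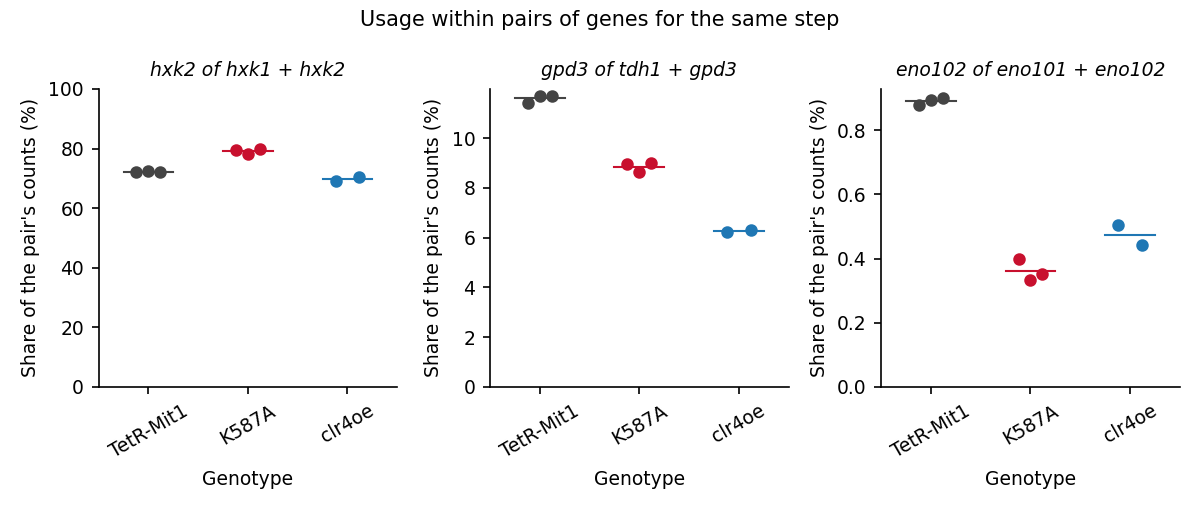
Points give, for each library, the percentage of a pair's counts that went to hxk2, gpd3 or eno102, with a line at the mean of each genotype; the vertical scales differ between panels and start at 0. The share of hxk2 is highest in K587A, the mean share of gpd3 is 11.6% in TetR-Mit1, 8.86% in K587A and 6.27% in clr4oe, and the share of eno102 is below 0.6% in K587A and clr4oe.

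Of 4 other genes of glycolysis and gluconeogenesis, 2 rose and 2 fell in K587A against TetR-Mit1, beside 27.3% and 25% of all tested genes. In clr4oe 3 rose and none fell, beside 32.1% and 33.0% of all tested genes. Glucose-6-phosphate isomerase, encoded by pgi1, stood at 1535, 1529 and 1547 CPM in TetR-Mit1, 1785, 1787 and 1753 CPM in K587A, and 2387 and 2387 CPM in clr4oe. The genotypes did not overlap. It rose in K587A by 0.21 ± 0.03 (log2, SE, edgeR adjusted p = 3.88e-06) and in clr4oe by 0.64 ± 0.03 (edgeR adjusted p = 2.31e-14). Phosphofructokinase, encoded by pfk1, rose in K587A by 0.21 ± 0.03 (log2, SE, edgeR adjusted p = 4.62e-06). Its rise in clr4oe was only 0.09 ± 0.04 (edgeR adjusted p = 0.0285). That rise in pfk1 lost its call without the first TetR-Mit1 library (log2 0.09, adjusted p = 0.0755), without the second (log2 0.09, adjusted p = 0.0844) and without the first clr4oe library (log2 0.06, adjusted p = 0.274), and under upper-quartile scaling (log2 0.04, adjusted p = 0.309) and total-count scaling (log2 0.03, adjusted p = 0.416). With total-count scaling the K587A rises of pgi1 and pfk1 did not pass the threshold (log2 0.06 each, adjusted p = 0.0974 and 0.0809). Overlapping counted genes, noc4 beside pgi1 and uba2 beside pfk1, stood at 77.3 to 97.3 and 119.6 to 131.0 CPM in the genotype means. Annotated genes that were not counted overlap pgi1 and pfk1 as well.

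The minor enolase gene eno102 fell in K587A, with 61.8, 60.6 and 62.4 CPM in TetR-Mit1 and 39.9, 32.8 and 33.8 CPM in K587A (log2 -0.79 ± 0.07 SE, edgeR adjusted p = 1.97e-09). Its direction there was opposite to that of eno101. In clr4oe eno102 had 71.7 and 61.7 CPM (log2 0.12 ± 0.08 SE, edgeR adjusted p = 0.19), and without the second clr4oe library the value passed the threshold (log2 0.23, adjusted p = 0.0376). The gluconeogenic gene fbp1 encodes fructose-1,6-bisphosphatase and is a classic glucose-repressed gene of fission yeast. It had 35.3, 35 and 44.2 CPM in TetR-Mit1, 34.1, 26.8 and 29.8 CPM in K587A, and 54.7 and 61.6 CPM in clr4oe. It fell in K587A (log2 -0.34 ± 0.10 SE, edgeR adjusted p = 0.00465; -0.22 and adjusted p = 0.068 without the third TetR-Mit1 library) and rose in clr4oe (log2 0.60 ± 0.10 SE, edgeR adjusted p = 6.67e-06).

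Genes of neighbouring routes were counted by list against TetR-Mit1, where 27.3% of all tested genes rose and 25% fell in K587A, and 32.1% rose and 33.0% fell in clr4oe. In K587A, 7 of 8 hexose transporter genes (ght1 to ght8) fell and none rose (6 fell under upper-quartile scaling), with a median log2 fold change of -0.432. Not called was ght7, which had only 8 to 33 counts in the libraries compared. Among the genes that fell, ght1 went from 95.2 to 41.7 CPM (log2 -1.18 ± 0.06 SE, edgeR adjusted p = 1.75e-14). The transporter gene ght2 fell by 0.76 on the log2 scale, and the weakly expressed ght3 fell by 1.18. In clr4oe, 4 of the 8 rose and 2 fell (3 and 2 with total-count scaling), with a median of 0.0871, and ght3 fell there by 1.69. Of 5 glycerol metabolism genes, 4 fell and 1 rose in K587A, among them dak1, for dihydroxyacetone kinase (log2 -1.04 ± 0.03 SE, edgeR adjusted p = 3.01e-18), while 3 rose and 1 fell in clr4oe. The other dihydroxyacetone kinase gene, dak2, went from 113.6 CPM in TetR-Mit1 to 19.2 in K587A (log2 -2.56 ± 0.07 SE, edgeR adjusted p = 4.66e-20) and 44.2 in clr4oe (log2 -1.36 ± 0.07 SE, edgeR adjusted p = 6.47e-15). The glycerol dehydrogenase gene gld1 fell by 0.77 in K587A (log2) and rose in clr4oe (log2 0.41). The gene gpd2, for glycerol-3-phosphate dehydrogenase, rose by 0.75 in clr4oe and fell in K587A (log2 -0.24). Of 4 pentose phosphate genes, which draw on glucose-6-phosphate, 3 fell in K587A and all 4 rose in clr4oe (1 higher and 2 lower in K587A and 3 higher in clr4oe under upper-quartile scaling). Among them zwf1, for glucose-6-phosphate dehydrogenase, fell by 0.62 in K587A (log2) and rose in clr4oe (log2 0.50). The transaldolase gene tal1 rose by 0.71 in clr4oe and fell in K587A (log2 -0.40). Of 8 genes of glucose signalling, 5 fell and none rose in K587A, among them git3, the glucose receptor gene (log2 -0.60 ± 0.04 SE, edgeR adjusted p = 5.41e-12), and 4 rose and 2 fell in clr4oe.

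The fermentation genes carry pyruvate on to ethanol, and 5 of the list were tested, beside the same shares of all genes (27.3% higher and 25% lower in K587A, 32.1% and 33.0% in clr4oe). All 5 rose in clr4oe, with a median log2 fold change of 0.546. Alcohol dehydrogenase gene adh1 went there from 8510.2 to 14214 CPM (log2 0.74 ± 0.03 SE, edgeR adjusted p = 9.71e-16). In K587A, 2 of the 5 rose and 1 fell (1 and 2 with total-count scaling), the latter being adh4, another alcohol dehydrogenase gene (log2 -0.60 ± 0.04 SE, edgeR adjusted p = 5.95e-13), which rose in clr4oe (log2 0.88 ± 0.04 SE, edgeR adjusted p = 2.29e-16). Of 12 genes of the tricarboxylic acid cycle, which oxidises the product of glycolysis in mitochondria, 5 rose and 6 fell in K587A, with a median of -0.0663, but with total-count scaling 0 rose and 7 fell. In clr4oe 8 rose and 1 fell, with a median of 0.354. Of 3 trehalose genes, 2 rose and 1 fell in K587A (0 and 1 with total-count scaling), and 2 rose in clr4oe. With lists of 3 to 12 genes, counts of this size are given as a description beside the shares of all genes.

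**Figure D5:**
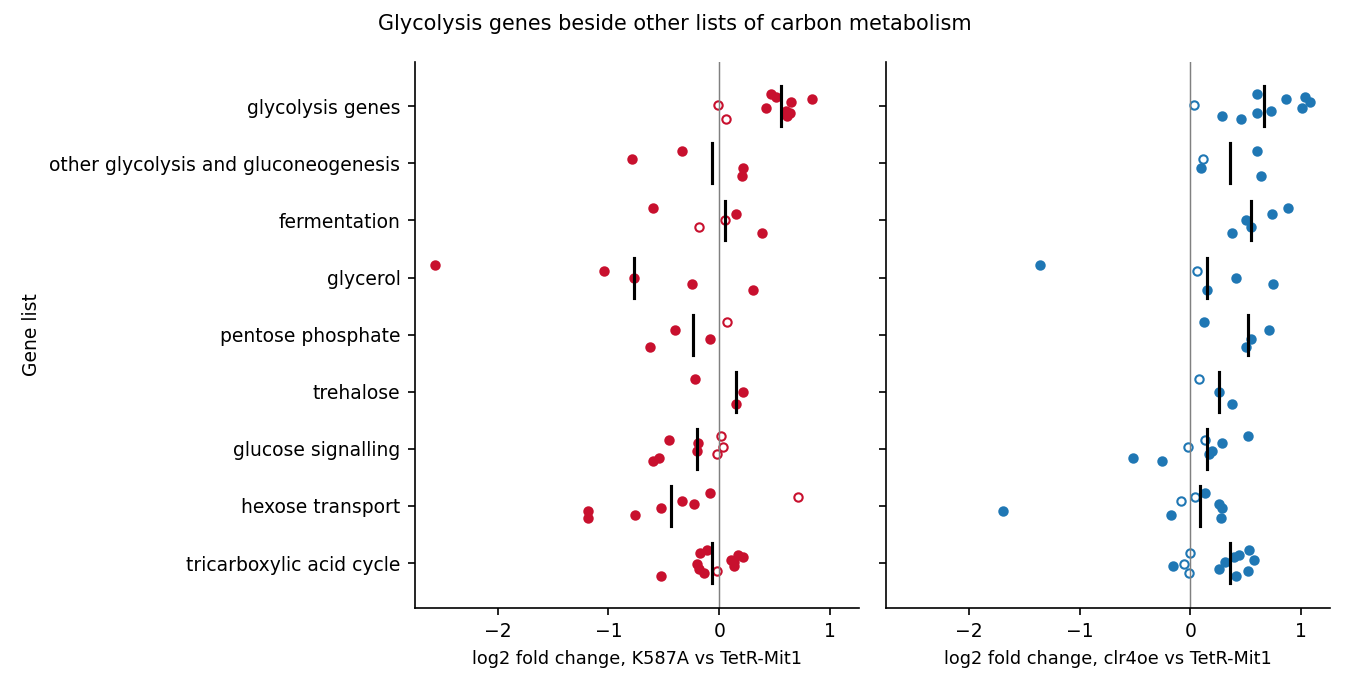
Points give the log2 fold change of each gene in 9 lists of carbon metabolism for K587A (left) and clr4oe (right) against TetR-Mit1; filled points passed an adjusted p of 0.05, and black lines mark list medians. The glycolysis median is 0.562 in K587A and 0.663 in clr4oe, while the hexose transport median is -0.432 and 0.0871.

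Because the 10 genes are abundant, they were also set beside the 100 most abundant other genes, a comparison chosen after the values were seen. In K587A 79 of these 100 rose and 11 fell, where 27.3% of all tested genes rose and 25% fell. Their median log2 fold change was 0.329, against 0.562 for the 10 glycolysis genes. Rises of at least 1.5-fold were found in 8 of the 100 and in 5 of the 10, against 1.51% of all tested genes. The 100 were counted with TMM scaling only. With total-count scaling just 1 of the 10 passed 1.5-fold. In clr4oe the abundant genes moved the other way on balance, with 31 rising and 62 falling, where 32.1% of all tested genes rose and 33.0% fell. Their median was -0.228, against 0.663 for the 10. The rise of abundant genes in K587A moved with that of the glycolysis genes, and its part in it was not tested.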

How the data were processed

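Genotypes came from the sample titles; the letter of each library in the descriptions links table columns to samples. The deposited values are raw read counts per gene, not normalized; the column names carry the suffix of gene counts from STAR, per the file headers. Alignment to build ASM294v2 and the tools STAR, SAMtools and DESeq2 are named in the submitters' processing notes. Versions, annotation, strand setting and filters are not given in the sources used here. Symbols, coding lengths and overlaps came from the RefSeq annotation of ASM294v3 (4906 of 4915 identifiers matched); since the builds differ, no coordinates or sequences are given.

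Counts were tested with edgeR 4.0.16 in R 4.3.3: filterByExpr (28 genes removed), TMM scaling and the quasi-likelihood F test with genotype as the only factor. All 8 libraries entered 1 fit. P-values were adjusted by Benjamini-Hochberg over 4887 genes, with a threshold of 0.05. The standard error is the absolute log2 fold change divided by the square root of F. Text names all 10 genes, 4 further pathway genes, and listed genes past 1.5-fold against TetR-Mit1. Members and lists were chosen with earlier results of these data known. Alternatives were other scalings, a replicate block, DESeq2 1.42.0, no low-count filter or a minimum of 10 per library, separate fits per comparison and removal of single libraries.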

Additional observations from a re-analysis of the deposited data

How the results depend on the processing

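For the 10 glycolysis genes, 384 of 400 recomputed log2 fold changes kept their direction and side of the threshold. The exceptions concern small differences, and apart from what a different scaling does by construction, the cause was not tested. With total-count scaling hxk1 in K587A against TetR-Mit1 went to -0.0916 (adjusted p = 0.0216), gpd3 to -0.17 there (adjusted p = 3.26e-05) and to -0.0224 in clr4oe against TetR-Mit1. In clr4oe against K587A the same scaling gave 0.0599 for fba1, 0.14 for gpd3 (adjusted p = 0.000438) and 0.12 for gpm1 (adjusted p = 0.0032), and called 2109 genes higher and 1388 lower in place of 1728 and 1777. Upper-quartile scaling gave -0.0136 for gpd3 in clr4oe against TetR-Mit1 and, against K587A, -0.0112 for gpd3, -0.096 for fba1 (adjusted p = 0.0217), -0.0385 for gpm1, 0.0539 for tpi1 and 0.0664 for pyk1.

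Removal of single libraries moved gpd3 in K587A against TetR-Mit1 between -0.0332 and 0.0042. In clr4oe against K587A it moved fba1 between -0.0594 and 0.0099, gpm1 between -0.0188 and 0.0837, and pyk1 between 0.0959 and 0.179. Where 1 clr4oe library remained, it was assumed to vary like the other groups.

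The number of glycolysis genes past the threshold, in either direction, ran from 8 to 10 in K587A, stayed at 9 in clr4oe, and ran from 6 to 9 between them. The 10 were 8 higher and 2 lower (total-count scaling, with 502 of all genes higher and 2515 lower). Between clr4oe and K587A, upper-quartile scaling gave 4 higher and 2 lower, and total-count scaling 8 higher and 1 lower. Over all genes these scalings called 1493 higher and 2107 lower, and 2109 higher and 1388 lower. In clr4oe against TetR-Mit1 the main fit called 32.1% of all tested genes higher and 33.0% lower. Past 1.5-fold and higher, the main fit called 1.51% of all tested genes in K587A, 4.99% in clr4oe and 9.80% between them. The glycolysis genes past 1.5-fold in K587A fell from 5 to 1 with total-count scaling. In clr4oe against TetR-Mit1 the 7 became 5 with upper-quartile or total-count scaling, where fba1 and pyk1 dropped below 1.5-fold, and 6 to 7 with single libraries removed. Between clr4oe and K587A the 1 gene became 0 with upper-quartile scaling, 2 with total-count scaling, and 0 to 1 with single libraries removed.

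With the 20 most abundant other genes out of the denominator, the glycolysis share was 5.34% in TetR-Mit1, 7.13% in K587A and 9.1% in clr4oe. Divided by coding length, hxk2 took 73.4%, 80.2% and 71.0% of its pair.

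Deviations of same-numbered libraries correlated only weakly across genes. For K587A and TetR-Mit1 the values were 0.0762, -0.043 and 0.0973, beside -0.137 to 0.0749 for libraries of different number. For same-numbered clr4oe libraries they were -0.000157 and 0.0562 with TetR-Mit1, beside -0.0562 to 0.05 for different numbers. With K587A they were -0.0953 and -0.0669, beside -0.0314 to 0.0953. The deviations of the 2 clr4oe libraries mirror each other, so their values are not independent. With the replicate number as a block, 8, 9 and 7 glycolysis genes were called in the 3 comparisons, as without it, and the count over all genes was 2573, 3119 and 3458.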
